A study of Mus musculus with 9 samples.

Results

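The genes described here encode the machinery that reads double-stranded RNA in the cytosol: Ddx58 (Rigi in newer nomenclature), Ifih1, Dhx58, Mavs, Zbp1, Eif2ak2 and Adar. They were chosen by symbol, and all 7 were found among the 54532 genes of the count table and among the 12012 genes with enough counts to be tested. RNA had been sequenced from wild type C57/B6 marrow neutrophils after 12 h in 0.5% fetal bovine serum (FBS) in 3 conditions of 3 libraries each: co-culture with PyMT-N cells, co-culture with PyMT-M cells, and culture alone. PyMT is the polyoma middle T antigen, used to drive mammary carcinoma in mice. The sources used here do not spell out N and M or how those cells were derived. The medium is named as DMEM for the co-cultures. Neutrophils of both co-cultures were isolated by fluorescence-activated sorting. The labels are silent on sorting of the neutrophils kept alone, so sorting and co-culture cannot be told apart in either comparison with them. The labels number the libraries as biological replicates without tying them to separate mice, so p-values measure the spread between these libraries, which may in part be technical.

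RIG-I (Ddx58) and MDA5 (Ifih1) are helicases that bind viral or unedited self double-stranded RNA, and LGP2 (Dhx58) is a related helicase without signalling domains that modulates both. RIG-I and MDA5 signal through MAVS, an adaptor on the mitochondrial surface, to the kinases and transcription factors that switch on type I interferons. ZBP1 binds Z-form nucleic acid and can start necroptosis, PKR (Eif2ak2) stops translation by phosphorylating eIF2alpha, and ADAR edits adenosines in double-stranded RNA and so keeps self RNA from being sensed. Several of these genes are themselves induced by interferon in many cell types, which is why their promoters are of interest.

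The promoter windows of 4 of the genes are shown. Ddx58, Ifih1 and Eif2ak2 shared 1 order of groups without overlap, PyMT-N, then PyMT-M, then alone. Mavs was higher in both co-cultures than alone but did not share their order of PyMT-N over PyMT-M. Adar did share that order, and its windows, which are not printed, held no match to the repeat marked below. Each window holds 250 bases before and 50 after an annotated start of the gene, read 5′ to 3′ along the gene, from RefSeq on GRCm38.p6. Capitals mark GAAA, any 2 bases and GAAA again, on either strand, the core repeat of interferon-stimulated response elements.

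Ddx58, chr4:40239776-40240075, minus strand: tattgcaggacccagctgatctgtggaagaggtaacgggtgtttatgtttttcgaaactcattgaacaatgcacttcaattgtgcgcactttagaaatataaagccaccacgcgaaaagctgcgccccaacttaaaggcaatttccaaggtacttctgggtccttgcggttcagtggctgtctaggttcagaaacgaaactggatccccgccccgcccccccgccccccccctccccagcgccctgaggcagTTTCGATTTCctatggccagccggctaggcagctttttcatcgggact
Ifih1, chr2:62646206-62646505, minus strand: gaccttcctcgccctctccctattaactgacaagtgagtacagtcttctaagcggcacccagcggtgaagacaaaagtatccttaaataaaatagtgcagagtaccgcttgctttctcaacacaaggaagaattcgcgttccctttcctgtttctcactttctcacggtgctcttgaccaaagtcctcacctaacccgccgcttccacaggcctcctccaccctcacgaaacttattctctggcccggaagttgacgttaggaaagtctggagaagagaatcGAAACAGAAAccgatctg
Eif2ak2, chr17:78882523-78882822, minus strand: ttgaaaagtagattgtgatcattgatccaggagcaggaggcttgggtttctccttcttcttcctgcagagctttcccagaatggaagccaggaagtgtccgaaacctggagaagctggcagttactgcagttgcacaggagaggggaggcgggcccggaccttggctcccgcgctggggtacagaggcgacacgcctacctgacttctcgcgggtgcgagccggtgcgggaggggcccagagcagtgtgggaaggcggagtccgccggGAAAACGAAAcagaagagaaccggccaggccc
Mavs, chr2:131233813-131234112, plus strand: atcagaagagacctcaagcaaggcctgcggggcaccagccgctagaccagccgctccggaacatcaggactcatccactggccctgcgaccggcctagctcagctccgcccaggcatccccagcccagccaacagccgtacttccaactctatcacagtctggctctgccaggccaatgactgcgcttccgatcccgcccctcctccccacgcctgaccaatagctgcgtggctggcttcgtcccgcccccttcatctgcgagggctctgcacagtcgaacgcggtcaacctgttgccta

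The repeat stood as TTTCGATTTC, on the strand opposite to the gene, 2 bases downstream of the start of Ddx58. It stood on the gene's own strand as GAAACAGAAA 32 bases downstream of the start of Ifih1 and as GAAAACGAAA 18 bases downstream of the start of Eif2ak2. No match was in the Mavs window or in any of 3 windows of Adar. Windows were matched for 5 of the 7 genes, 7 windows in all, and 3 of these 5 genes held the repeat in a window, against 3.99% of all 27025 genes with a window. Dhx58 and Zbp1 had no window matched. With 1 to 3 bases allowed between the GAAA cores, an Adar window also matched. The match lay 28 bases downstream of an annotated start at chr3:89730718, inside the gene, which begins at 89715022. The bases just after that start were found in no GENCODE transcript of Adar. With this spacing 4 of the 5 genes matched, against 9.91% of all genes with a window. A match describes these letters only, not a bound site.

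Libraries held 3507969 to 4524563 counts with PyMT-N cells, 3269332 to 4307585 with PyMT-M cells and 1641049 to 3180382 alone, and alone replicate 3 was the shallowest, with 11814 genes counted. All 15 neutrophil markers had counts in all 9 libraries, and their summed level was 17072 to 21886 normalised CPM (counts relative to the library size and scaled by TMM, the trimmed mean of M values) with PyMT-N cells, 17121 to 21722 with PyMT-M cells and 35864 to 50339 alone. Transcripts typical of other cells were present in the sorted co-culture libraries. The 24 epithelial markers summed to 2660 to 3536 normalised CPM with PyMT-N cells, with 2 to 3 genes at 0, to 123 to 183 with PyMT-M cells, with 8 to 11 at 0, and to 73.9 to 133 alone, with 12 to 19 at 0. The 22 mesenchymal markers summed to 1682 to 2037 with PyMT-N cells (7 to 10 genes at 0), 1973 to 2155 with PyMT-M cells (4 at 0) and 220 to 269 alone (9 to 13 at 0). The similar sums of the co-cultures came from different genes. Of 16 tested, 3 were higher and 10 lower with PyMT-N than PyMT-M cells, where 19.1% and 15.5% of all tested genes were. Fn1 averaged 884 with PyMT-N cells and 1.22 with PyMT-M cells, and Col3a1 0 and 233. Of the epithelial genes, Krt18 had 310, 365 and 322 normalised CPM with PyMT-N cells, against 0, 0.382 and 0 with PyMT-M cells and 1.34, 0 and 0.754 alone. Epcam was at 152 to 228 with PyMT-N cells, at 1.72 to 2.13 with PyMT-M cells and at 0 in all 3 alone libraries. Markers of other marrow cells went the other way: 8 B cell genes summed to 17.2 to 20.1 with PyMT-N cells, 79.6 to 127 with PyMT-M cells and 565 to 1352 alone, and 9 eosinophil and basophil genes to 22.0 to 25.4, 13.8 to 14.5 and 378 to 489 in the same groups. Dendritic cell markers (13 genes) summed to 214 to 231, 159 to 180 and 497 to 898, and monocyte and macrophage markers (13 genes) to 711 to 907, 508 to 753 and 1310 to 1847. Their part in the differences of the sensor genes was not tested.

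Of the 3 RNA sensing helicases, Ddx58 and Ifih1 were higher in both co-cultures than alone and higher with PyMT-N than with PyMT-M cells. Dhx58 passed the test under TMM scaling in 1 of the 3 comparisons, PyMT-N co-culture against alone. Ddx58 (chr4:40203773-40239828, minus strand, GRCm38) had 459.5, 331 and 369 normalised CPM with PyMT-N cells, 168, 191 and 188 with PyMT-M cells and 60.2, 64.6 and 34.7 alone. The 3 groups did not overlap, and their order was PyMT-N, then PyMT-M, then alone. Ddx58 was 7.06-fold higher in PyMT-N co-culture than alone (log2 fold change 2.82 ± 0.23 SE, edgeR quasi-likelihood test, adjusted p = 1.17e-07) and 3.33-fold higher in PyMT-M co-culture than alone (1.74 ± 0.23, adjusted p = 1.72e-05). Its level with PyMT-N cells was 2.12-fold that with PyMT-M cells (1.08 ± 0.20, adjusted p = 0.000603). In bulk RNA, a larger share of expressing cells and more RNA per cell cannot be told apart.

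Ifih1 (chr2:62595798-62646255, minus strand), the sensor of long double-stranded RNA, followed the same order. It had 233, 158 and 181 normalised CPM with PyMT-N cells, 89.9, 68.3 and 74.8 with PyMT-M cells and 20.5, 16.4 and 31.7 alone, with no overlap between groups. Its fold change was 8.78 between PyMT-N co-culture and alone (log2 3.13 ± 0.27, edgeR adjusted p = 2.58e-07), 3.57 between PyMT-M co-culture and alone (1.84 ± 0.28, adjusted p = 6.73e-05) and 2.46 between the co-cultures (1.30 ± 0.22, adjusted p = 0.000307).

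Dhx58 (chr11:100694884-100704271, minus strand), the regulatory helicase, was even within each co-culture but not among the alone libraries. It had 154, 123 and 139 normalised CPM with PyMT-N cells, 67.1, 76.9 and 61.5 with PyMT-M cells, and 16.5, 17.2 and 92.0 alone. Alone replicate 3, the shallowest library, stood at 5.47 times the mean of the other alone libraries, above every PyMT-M library and below every PyMT-N library. For the other sensor genes that library stood at 0.126 (Mavs) to 2.57 (Zbp1) times the mean of the other alone libraries. Dhx58 was higher in PyMT-N co-culture than alone (log2 1.91 ± 0.46, edgeR adjusted p = 0.00366), and 3.04 without alone replicate 3. With PyMT-M cells the difference did not pass (0.89 ± 0.47, adjusted p = 0.123), whereas it was 2.03 without alone replicate 3 (adjusted p = 6.86e-07) and 2.41 under pan-leukocyte scaling (adjusted p = 0.000115). PyMT-N and PyMT-M libraries did not overlap, and their difference of 1.01 ± 0.40 had an adjusted p of 0.0682. Dhx58 shares 141 exonic bases with the antisense gene Dhx58os, which had 14 counts in all with PyMT-N cells, 1 with PyMT-M cells and 0 alone.

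The adaptor Mavs (chr2:131234063-131248025, plus strand) had the lowest mean of the 7 per length of exon in every condition, and it did not show the PyMT-N over PyMT-M order of the sensors. It had 10.6, 16.5 and 9.47 normalised CPM with PyMT-N cells, 16.3, 17.8 and 21.0 with PyMT-M cells and 4.90, 7.10 and 0.754 alone, the last from 1 count. Both co-cultures lay above all alone libraries, and the co-cultures overlapped each other. Mavs was higher with PyMT-M cells than alone (log2 1.89 ± 0.46, edgeR adjusted p = 0.00276) and, more narrowly, with PyMT-N cells than alone (1.30 ± 0.49, adjusted p = 0.0371). The second call was lost without PyMT-N replicate 2 (1.04, adjusted p = 0.123), without alone replicate 1 (1.30, adjusted p = 0.0901) and without alone replicate 3 (0.99, adjusted p = 0.0758). Between the co-cultures the difference of -0.60 ± 0.34 did not pass (adjusted p = 0.191), and it passed when libraries were scaled to pan-leukocyte genes (-0.9995, adjusted p = 0.0421).

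Zbp1 (chr2:173206612-173218923, minus strand) had the largest fold changes of the 7 in all 3 comparisons. It had 559, 407 and 463 normalised CPM with PyMT-N cells, 104, 120 and 134 with PyMT-M cells, and 0.891, 6.73 and 9.81 alone, where the counts were 2, 18 and 13. The lowest co-culture library thus lay far above the highest alone library, and the co-cultures did not overlap. Zbp1 was 88.8-fold higher with PyMT-N cells than alone (log2 6.47 ± 0.36, edgeR adjusted p = 2.2e-09), with a range of 5.92 to 6.87 when single libraries were left out. With PyMT-M cells it was 22.3-fold higher than alone (4.48 ± 0.37, adjusted p = 3.04e-07). The difference between PyMT-N and PyMT-M co-culture was 3.99-fold (2.00 ± 0.23, adjusted p = 9.68e-06).

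Eif2ak2 (chr17:78852564-78882573, minus strand), which encodes PKR, ran close to Ddx58. It had 207, 133 and 164 normalised CPM with PyMT-N cells, 102, 84.4 and 83.6 with PyMT-M cells and 18.3, 22.8 and 11.3 alone, and no groups overlapped. The rise was 9.14-fold with PyMT-N cells over alone (log2 3.19 ± 0.28, edgeR adjusted p = 2.4e-07) and 4.90-fold with PyMT-M cells over alone (2.29 ± 0.28, adjusted p = 9.96e-06). PyMT-N exceeded PyMT-M co-culture by 0.90 ± 0.22 on the log2 scale (adjusted p = 0.00485), a call lost under scaling to pan-leukocyte genes (0.48, adjusted p = 0.106). Eif2ak2 shares 174 exonic bases with the opposite-strand gene Gm26637, which had 74 counts with PyMT-N cells, 45 with PyMT-M cells and 9 alone.

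Adar (chr3:89715022-89753446, plus strand), which encodes the editing enzyme, was already abundant in neutrophils kept alone and changed least of the genes that changed in all 3 comparisons. It had 317, 286 and 353 normalised CPM with PyMT-N cells, 188, 171 and 208 with PyMT-M cells and 138, 119 and 137 alone, again without overlap. The rise was 2.43-fold with PyMT-N cells over alone (log2 1.28 ± 0.18, edgeR adjusted p = 2.31e-05) and 1.44-fold with PyMT-M cells over alone (0.53 ± 0.18, adjusted p = 0.0183). The PyMT-M call was lost without PyMT-M replicate 3 (0.47, adjusted p = 0.056) and without alone replicate 2 (0.46, adjusted p = 0.0775). PyMT-N exceeded PyMT-M co-culture by 0.75 ± 0.17 (adjusted p = 0.0025), which did not pass under pan-leukocyte scaling (0.33, adjusted p = 0.221). Counts per gene do not separate the interferon-inducible long form of ADAR from the constitutive short form, and 1365 exonic bases are shared with Chrnb2 on the opposite strand, which had 26, 31 and 13 counts with PyMT-N cells, with PyMT-M cells and alone.

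**Figure D1:**
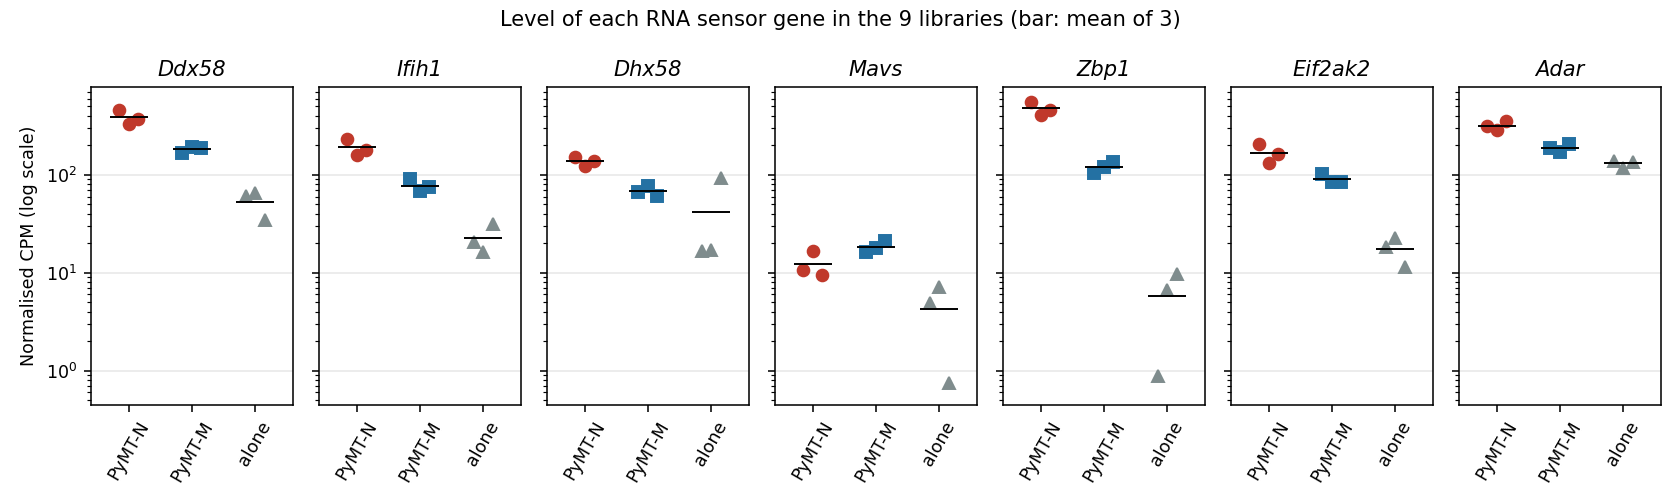
Normalised CPM on a log axis of each of the 7 genes in each library, by condition, with a bar at the mean of 3 libraries. Zbp1 spans the widest range, at 407 to 559 with PyMT-N cells and 0.891 to 9.81 alone, and Mavs is the one gene whose PyMT-M libraries reach above its PyMT-N libraries.

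Counted together, all 7 genes passed the test as higher in PyMT-N co-culture than alone, where 29.4% of all tested genes did, and in all 7 the groups did not overlap, where 33.4% of tested genes were higher without overlap. In PyMT-M co-culture 6 of 7 were higher than alone, against a background of 28.2%, with Dhx58 the exception. Those 6 were also the ones without overlap, against 31.4% of tested genes. Between PyMT-N and PyMT-M co-culture, 5 of 7 were higher with PyMT-N cells, against a background of 19.1%, and Dhx58 and Mavs did not pass. Groups did not overlap for 6 of 7, all higher with PyMT-N cells, against 27.3% of tested genes. The median log2 fold change of the 7 was 2.82, 1.84 and 1.01 in these comparisons, beside 0.12, -0.03 and -0.02 for all tested genes. Both comparisons with neutrophils alone use the same 3 alone libraries, so their results for a gene are not independent.

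**Figure D2:**
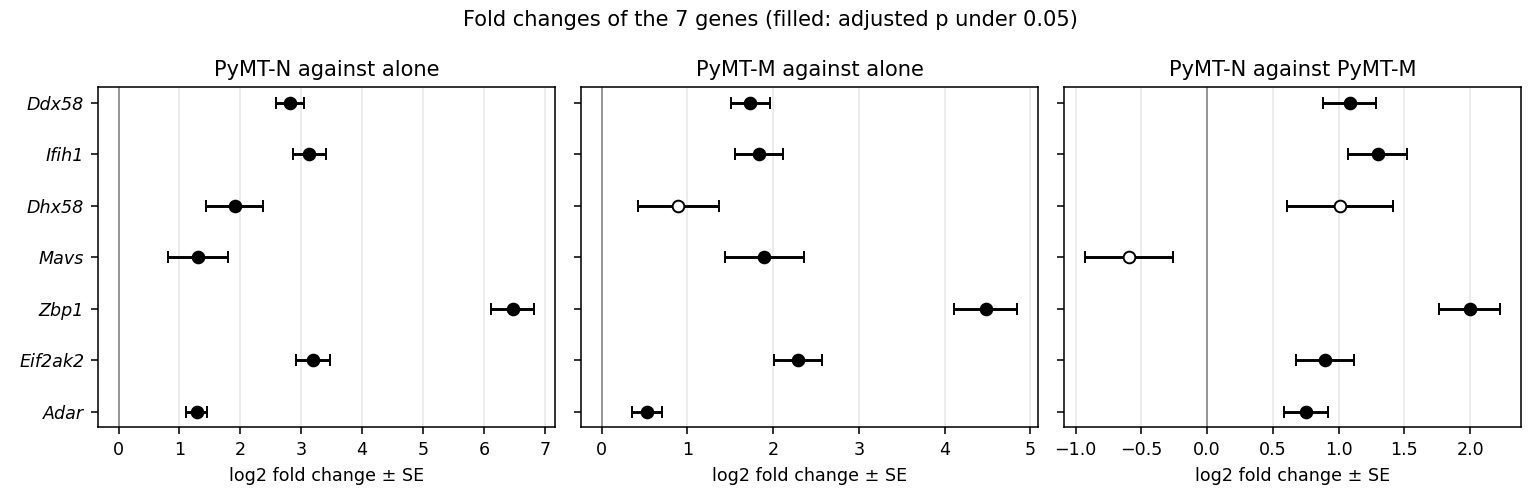
Log2 fold change with its SE for each of the 7 genes in each comparison, with filled points at an adjusted p under 0.05. Zbp1 lies farthest right in each panel, at 6.47, 4.48 and 2.00, and Mavs is left of 0 between the co-cultures, at -0.60.

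The way libraries were scaled moved the calls over all genes. The 30 pan-leukocyte genes used for one scaling summed to 13716 to 16911 normalised CPM with PyMT-N cells, 9714 to 13187 with PyMT-M cells and 29748 to 32720 alone. Of all tested genes, TMM scaling called 3533 higher and 2831 lower with PyMT-N cells than alone, 3382 and 3353 with PyMT-M cells than alone, and 2297 and 1865 between PyMT-N and PyMT-M co-culture. Library totals gave 4315 and 2112, 4571 and 1913, and 1834 and 2703 calls for the same comparisons. Scaling to pan-leukocyte genes gave 6856 and 885, 7599 and 290, and 1462 and 3304. The median of all genes shifted by 1.07, 1.45 and -0.40 on the log2 scale under pan-leukocyte scaling and by 0.29, 0.47 and -0.21 under library totals. No direction turned for any of the 7 genes under any of the 5 scalings. Under pan-leukocyte scaling, 7 of 7 were higher in each co-culture than alone, where 57.1% and 63.3% of tested genes were higher and 7.37% and 2.41% lower. Between PyMT-N and PyMT-M co-culture that scaling left Ddx58 (0.65, edgeR adjusted p = 0.0259), Ifih1 (0.88, adjusted p = 0.00442) and Zbp1 (1.55, adjusted p = 3.44e-05) as higher, 3 of 7 against 12.2% of tested genes, and Mavs as lower, 1 of 7 against 27.5%.

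**Figure D3:**
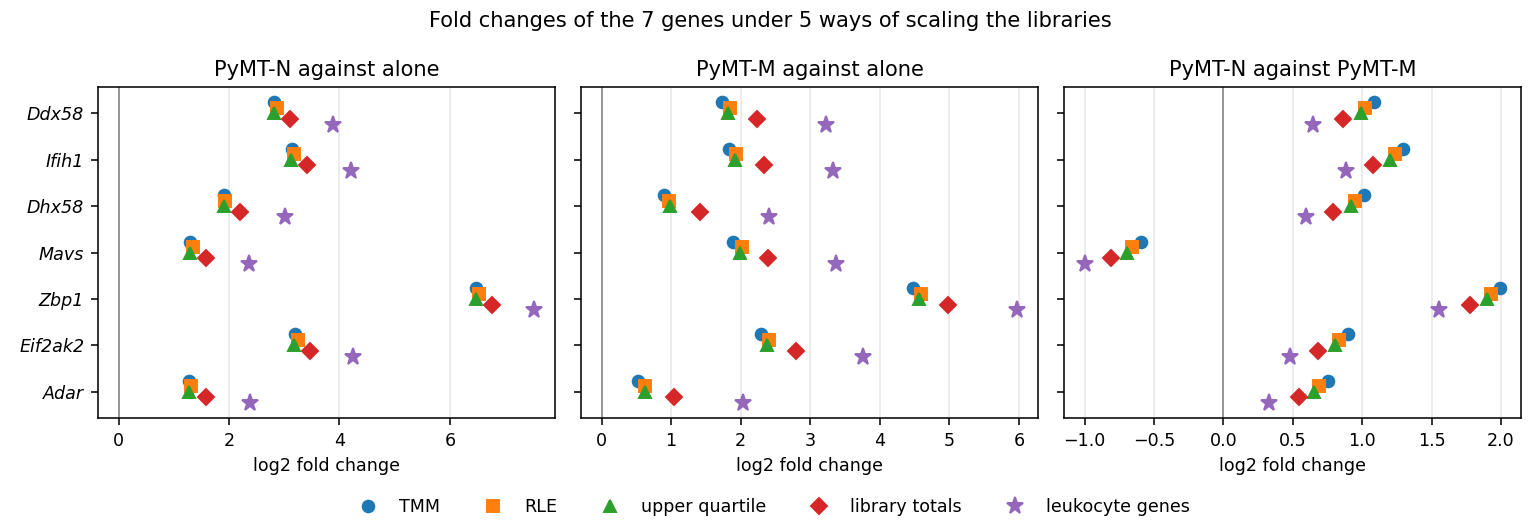
Log2 fold changes of the 7 genes under TMM, relative log expression (RLE), upper quartile, library total and pan-leukocyte scaling. The pan-leukocyte points lie to the right of TMM in both comparisons with neutrophils alone and to the left of it between PyMT-N and PyMT-M co-culture, where Adar falls to 0.33 and Eif2ak2 to 0.48.

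Levels can be compared roughly between the genes per kilobase of merged exon. Merged exons join every annotated transcript of a gene, from 3 for Zbp1 to 10 for Ddx58. The order and shares of the genes thus depend on the annotation as well. In PyMT-N co-culture the order was Zbp1 at 135 ± 21.7 normalised CPM per kb (SD, n = 3), Ddx58 at 54.8 ± 9.35, Dhx58 at 42.3 ± 4.78, Adar at 39.2 ± 4.14, Eif2ak2 at 32.8 ± 7.31, Ifih1 at 23.4 ± 4.70 and Mavs at 3.65 ± 1.13. Zbp1 stood clear of Ddx58, and Mavs of Ifih1, while each other pair of neighbours overlapped. With PyMT-M cells the order was Zbp1 at 33.9 ± 4.28, Ddx58 at 25.9 ± 1.78, Adar at 23.3 ± 2.27, Dhx58 at 20.9 ± 2.39, Eif2ak2 at 17.6 ± 2.03, Ifih1 at 9.51 ± 1.35 and Mavs at 5.49 ± 0.719, with Ddx58, Adar, Dhx58 and Eif2ak2 overlapping their neighbours. In neutrophils alone the order began with Adar at 16.2 ± 1.32, followed by Dhx58 at 12.8 ± 13.3, Ddx58 at 7.54 ± 2.29, Eif2ak2 at 3.41 ± 1.13, Ifih1 at 2.80 ± 0.967, Zbp1 at 1.65 ± 1.28 and Mavs at 1.27 ± 0.963, and the one gap between neighbours lay below Ddx58. Zbp1 thus was first in both co-cultures and next to last alone.

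The make-up of the group changed accordingly. Zbp1 held 40.7% ± 0.679 (SD, n = 3) of the summed per-kb level of the 7 genes with PyMT-N cells, 24.8% ± 2.40 with PyMT-M cells and 3.40% ± 2.37 alone. Adar held 11.9% ± 1.58, 17.0% ± 1.36 and 36.6% ± 7.91 with PyMT-N cells, with PyMT-M cells and alone. The summed normalised CPM of the 7 genes was 1691 ± 243 with PyMT-N cells, 745 ± 22.6 with PyMT-M cells and 276.6 ± 34.9 alone.

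**Figure D4:**
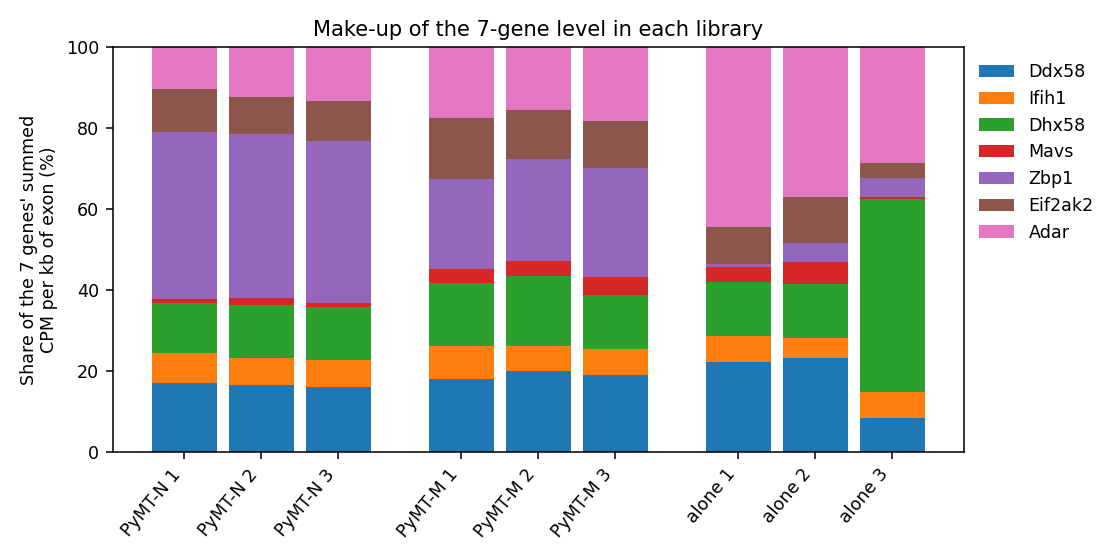
Stacked bars of the share of each gene, in percent, in the summed CPM per kb of the 7 genes, 1 bar per library. The Zbp1 segment is 40.2% to 41.5% in PyMT-N libraries, 22.2% to 27.0% in PyMT-M libraries and 0.658% to 4.82% alone, and Dhx58 takes 47.7% of alone replicate 3.

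Among the 7, Ddx58 and Eif2ak2 had the most similar profiles over the 9 libraries, with a root mean square difference of 0.27 in centred log2 CPM, and Zbp1 and Adar the least similar, at 2.41. Profiles were centred but not scaled, so the size of a change counts in this difference. Zbp1 and Adar shared the same order of groups and differed in the size of their changes. Profiles were also compared with 6923 other genes, as a description across libraries that share groups and depth. The nearest to Ifih1 were Stat2 (0.25), a transcription factor of the interferon response, Ifi35 (0.27) and Trim30d (0.28). The nearest to Zbp1 were the interferon-inducible Oasl1 (0.40), then Tpm1 (0.56), which encodes tropomyosin, and Ifit1 (0.58). Dhx58 was nearest to Oas1b (0.32), an oligoadenylate synthetase family gene, then Hsd17b7 (0.34) and Trip10 (0.35). Eif2ak2 was nearest to Tent4a (0.29), Slc20a2 (0.29) and Ube2l6 (0.31), the last the conjugating enzyme for the ubiquitin-like ISG15. Ddx58 was nearest to Mapk6 (0.22), Clic4 (0.23) and Tor1aip2 (0.25). Mavs was nearest to Trmt10c (0.16), G2e3 (0.17) and Fyttd1 (0.19), and Adar to Oxsr1 (0.17), Dcp2 (0.18) and Rexo2 (0.19).

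Around the helicases, the list of regulators and co-sensors moved in both directions. Of 21 tested regulators, 9 were higher and 3 lower with PyMT-N cells than alone, 6 higher and 4 lower with PyMT-M cells than alone, and 4 were higher and 3 lower with PyMT-N than with PyMT-M cells. Of all tested genes, 29.4% were higher and 23.6% lower in the first of these comparisons, 28.2% and 27.9% in the next, and 19.1% and 15.5% between the co-cultures, so the shares of regulators called higher with PyMT-M cells than alone and between the co-cultures were close to those of all genes. The regulators had median log2 fold changes of -0.24, 0.18 and 0.20. Pan-leukocyte scaling gave 14 higher and 1 lower, 16 and 0, and 2 and 6, where 57.1% and 7.37%, 63.3% and 2.41%, and 12.2% and 27.5% of all tested genes were higher and lower. Nlrc5, a regulator of MHC class I genes also described as a brake on RIG-I and MDA5, had 212, 243 and 213 normalised CPM with PyMT-N cells, 66.9, 81.5 and 63.4 with PyMT-M cells and 21.8, 19.4 and 55.8 alone. It was higher with PyMT-N cells than alone (2.90 ± 0.31, edgeR adjusted p = 1.71e-06) and than with PyMT-M cells (1.65 ± 0.26, adjusted p = 0.000147). G3bp1, a stress granule protein that binds RNA with RIG-I, peaked in the other co-culture, at 197, 236 and 214 with PyMT-N cells, 350.2, 379 and 338 with PyMT-M cells and 44.1, 60.9 and 66.4 alone. It was higher with PyMT-N cells (1.93 ± 0.20, adjusted p = 1.3e-06) and with PyMT-M cells (2.65 ± 0.20, adjusted p = 1.26e-07) than alone, and lower with PyMT-N than PyMT-M cells (-0.72 ± 0.17, adjusted p = 0.00449). Ddx60, a helicase that promotes RIG-I signalling, was higher in both against alone (1.37 ± 0.20 and 1.49 ± 0.20). Nlrx1 and Rnf125, negative regulators, were lower with PyMT-N cells than alone (-1.83 ± 0.28 and -2.92 ± 0.65), though Nlrx1 did not pass under pan-leukocyte scaling (-0.76, adjusted p = 0.0581) and the groups overlapped for Rnf125. Nlrx1, a mitochondrial protein that restrains MAVS, averaged 13.6 ± 1.20 with PyMT-N cells, 16.4 ± 2.58 with PyMT-M cells and 47.1 ± 9.69 alone (SD, n = 3 each). Rnf125, a ubiquitin ligase that marks RIG-I for degradation, averaged 1.86 ± 1.73 with PyMT-N cells, 12.4 ± 3.37 with PyMT-M cells and 12.4 ± 8.30 alone, and was lower with PyMT-N than PyMT-M cells (-2.79 ± 0.59, adjusted p = 0.00174).

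The signalling partners of MAVS were listed together, those that act on or bind MAVS, such as Smurf1 and Tomm70a, with those downstream of it. PyMT-N co-culture had 5 of 26 tested partners higher and 7 lower than alone, and PyMT-M co-culture had 2 higher and 11 lower. Between the co-cultures, 5 were higher and 3 lower with PyMT-N than with PyMT-M cells. Median log2 fold changes were -0.21, -0.49 and 0.34. Beside these counts, 29.4% of all tested genes were higher and 23.6% lower with PyMT-N cells than alone, 28.2% and 27.9% with PyMT-M cells than alone, and 19.1% and 15.5% between the co-cultures. Both the 7 lower with PyMT-N cells than alone and the counts between the co-cultures were near these shares. Under pan-leukocyte scaling the split turned to 16 higher and 2 lower, 18 and 1, and 3 and 4, near the 57.1%, 63.3% and 12.2% higher of all tested genes. Irf7, the interferon-inducible factor that amplifies type I interferon, had 621, 344 and 446 normalised CPM with PyMT-N cells, 167, 181 and 126 with PyMT-M cells and 7.58, 20.9 and 14.3 alone. It was higher in PyMT-N (5.01 ± 0.33, edgeR adjusted p = 1.58e-08) and in PyMT-M co-culture (3.44 ± 0.33, adjusted p = 1.28e-06) than alone, and higher with PyMT-N than PyMT-M cells (1.57 ± 0.25, adjusted p = 0.00016). Irf3, its constitutive relative, had 66.0, 63.1 and 65.2 with PyMT-N cells, 55.7, 48.1 and 41.8 with PyMT-M cells and 70.0, 66.5 and 86.0 alone. Its difference between PyMT-N co-culture and alone, -0.18 ± 0.21, did not pass, and it turned to 0.91 under pan-leukocyte scaling (adjusted p = 0.00423). Against alone in PyMT-M co-culture it was -0.59 ± 0.22 (adjusted p = 0.0297), and this also turned under pan-leukocyte scaling, to 0.89 (adjusted p = 0.0049). The lower call was lost under RLE (relative log expression, adjusted p = 0.0723), upper quartile (adjusted p = 0.0589) and library total scaling (-0.08, adjusted p = 0.771), and when PyMT-M replicate 2 or 3 or alone replicate 1 or 3 was left out (adjusted p 0.051 to 0.113).

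The kinases that activate these factors differed from each other. Ikbke, the inducible kinase IKK epsilon, had 427, 324 and 382 normalised CPM with PyMT-N cells, 16.6, 17.2 and 21.0 with PyMT-M cells and 22.3, 19.4 and 83.0 alone. It was higher with PyMT-N cells than alone (3.33 ± 0.38, edgeR adjusted p = 5.96e-06) and than with PyMT-M cells (4.38 ± 0.39, adjusted p = 7.59e-07). Its difference between PyMT-M co-culture and alone, -1.04 ± 0.43, did not pass (adjusted p = 0.0526), and it was 0.47 under pan-leukocyte scaling (adjusted p = 0.342). Tbk1, its constitutive relative, was lower with PyMT-M cells than alone (-0.95 ± 0.22, adjusted p = 0.00178), a call lost under library totals (-0.44, adjusted p = 0.107) and a value that turned to 0.56 under pan-leukocyte scaling (adjusted p = 0.0712). With PyMT-N cells it was at -0.56 ± 0.21 (adjusted p = 0.0372), which did not pass without any of the 3 PyMT-N libraries or alone replicate 2 or 3 (adjusted p 0.0576 to 0.13), nor under RLE (adjusted p = 0.0543) or library totals (-0.27, adjusted p = 0.311), and it turned to 0.52 under pan-leukocyte scaling (adjusted p = 0.0959). Ikbkg, the regulatory subunit NEMO, fell in both co-cultures, with averages of 124 ± 9.87 with PyMT-N cells, 98.5 ± 12.9 with PyMT-M cells and 528 ± 175 alone (SD, n = 3 each; -2.09 ± 0.23 and -2.43 ± 0.24 against alone). Smurf1, a ubiquitin ligase that targets MAVS, was higher with PyMT-N cells than alone (1.81 ± 0.31, adjusted p = 0.000176) and than with PyMT-M cells (1.22 ± 0.27, adjusted p = 0.00233). Tomm70a, a mitochondrial receptor that binds MAVS, was higher than alone with PyMT-N cells (0.88 ± 0.27, adjusted p = 0.0121) and with PyMT-M cells (1.81 ± 0.26, adjusted p = 3.96e-05), and lower with PyMT-N than PyMT-M cells (-0.93 ± 0.23, adjusted p = 0.00494).

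Interferon transcripts themselves were near the limit of detection. None of 20 type I and III interferon genes had enough counts to be tested, 16 had no count in any library, and the limit that 0 counts allows was 0.573 to 2.26 normalised CPM by library. Ifnb1, which encodes interferon beta, had 5, 5 and 7 counts with PyMT-N cells, 0, 1 and 0 with PyMT-M cells and none alone. Summed over 3 libraries the PyMT-N level was 3.01-fold that of alone when the alone group is set at 3 counts. This ratio leaves out counting error in the PyMT-N counts. The ratio of Ifnb1 in PyMT-N to PyMT-M co-culture was 19.7, with an exact 95% interval of 3.09 to 824 that covers counting error only. The labels do not say how reads of near-identical interferon alpha genes were assigned, so their zeros are uncertain.

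On the PKR side, Eif2ak2 was the one of 4 eIF2alpha kinases called higher in the co-cultures under TMM. Each of the other 4 scalings also called Eif2ak4 higher with PyMT-M cells than alone, and pan-leukocyte scaling called it higher with PyMT-N cells than alone too and turned Eif2ak1 positive in both co-cultures and Eif2ak3 in PyMT-M co-culture. Eif2ak3, the endoplasmic reticulum stress kinase PERK, had 24.4, 28.9 and 24.1 normalised CPM with PyMT-N cells, 54.6, 54.8 and 42.6 with PyMT-M cells and 99.8, 129 and 61.1 alone. It was lower with PyMT-N cells than alone (-1.94 ± 0.27, edgeR adjusted p = 3.11e-05) and with PyMT-M cells than alone (-0.96 ± 0.26, adjusted p = 0.00523), and lower with PyMT-N than PyMT-M cells (-0.98 ± 0.27, adjusted p = 0.0107). The PyMT-M call was lost without alone replicate 2 (-0.69, adjusted p = 0.0504) and under library totals (-0.46, adjusted p = 0.161), the call between co-cultures without PyMT-N replicate 3 (-0.93, adjusted p = 0.0535), and the PyMT-M value turned to 0.51 under pan-leukocyte scaling. Eif2ak1, the haem-regulated kinase HRI, was lower with PyMT-M cells than alone (-1.18 ± 0.30, adjusted p = 0.00382), a call lost under library totals (-0.68, adjusted p = 0.0679). With PyMT-N cells it was at -0.73 ± 0.30 (adjusted p = 0.0481), which did not pass without PyMT-N replicate 1 or 3 or alone replicate 1 or 2 (adjusted p 0.0828 to 0.206), nor under RLE (adjusted p = 0.0612) or library totals (-0.44, adjusted p = 0.224). Both Eif2ak1 values turned positive under pan-leukocyte scaling, at 0.35 with PyMT-N cells and 0.29 with PyMT-M cells. Eif2ak4, the amino acid sensor GCN2, passed in no comparison under TMM, with -0.02 ± 0.33 with PyMT-N cells over alone, 0.68 ± 0.31 with PyMT-M cells over alone and -0.70 ± 0.28 between PyMT-N and PyMT-M co-culture. The value with PyMT-M cells over alone passed under RLE (0.79, adjusted p = 0.0378), upper quartile (0.77, adjusted p = 0.047), library total (1.18, adjusted p = 0.00479) and pan-leukocyte scaling (2.16, adjusted p = 3.11e-05) and with DESeq2 (0.81, adjusted p = 0.0222). Between PyMT-N and PyMT-M co-culture it was lower under the same 4 scalings (-1.10 to -0.76, adjusted p 0.0132 to 0.0403), with DESeq2 (-0.76, adjusted p = 0.0333), with limma-voom (-0.72, adjusted p = 0.0208) and in a fit of the compared groups alone (-0.70, adjusted p = 0.0398). With PyMT-N cells over alone it turned to 1.06 under pan-leukocyte scaling (adjusted p = 0.029).

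Genes of eIF2 itself, the substrate complex of these kinases, were higher in both co-cultures than alone. Of 18 tested genes of the eIF2alpha axis, PyMT-N cells came with 9 higher and 3 lower than alone, PyMT-M cells with 9 higher and 4 lower, and 2 were higher and 3 lower with PyMT-N than with PyMT-M cells, with medians of 0.57, 0.73 and -0.27. All tested genes were called higher and lower in 29.4% and 23.6%, 28.2% and 27.9%, and 19.1% and 15.5% of cases, so the lower counts against alone and both counts between the co-cultures were near or below the share of all genes. Under pan-leukocyte scaling these counts were 13 and 1, 13 and 0, and 1 and 8, beside 57.1% and 7.37%, 63.3% and 2.41%, and 12.2% and 27.5% of all tested genes. Eif2s1, eIF2alpha itself, averaged 105 ± 15.1 normalised CPM with PyMT-N cells, 146 ± 26.4 with PyMT-M cells and 17.0 ± 5.75 alone (SD, n = 3 each), a rise of 2.55 ± 0.28 and 3.03 ± 0.28 against alone. Eif2s2, the beta subunit, was lower with PyMT-N than PyMT-M cells (-0.66 ± 0.16, edgeR adjusted p = 0.00551) while higher in both against alone (1.30 ± 0.18 and 1.96 ± 0.18). Chac1, a target of the stress factor ATF4, was higher with PyMT-N than PyMT-M cells (1.55 ± 0.35, adjusted p = 0.0027). It averaged 46.7 ± 6.73 normalised CPM with PyMT-N cells, 15.5 ± 8.70 with PyMT-M cells and 29.0 ± 9.09 alone (SD, n = 3 each). Atf4 itself was not called between the co-cultures, at 453 ± 36.8 with PyMT-N cells and 548 ± 72.9 with PyMT-M cells. Ddit3, which encodes the stress factor CHOP, was lower with PyMT-N cells than alone (-1.73 ± 0.30, adjusted p = 0.000225), which did not pass under pan-leukocyte scaling (-0.65, adjusted p = 0.108).

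Among the necroptosis partners of ZBP1, Mlkl was many-fold higher in both co-cultures than alone. Mlkl, the executioner that permeabilises the membrane, had 110, 112 and 96.2 normalised CPM with PyMT-N cells, 96.5, 96.2 and 94.0 with PyMT-M cells and 2.23, 3.74 and 4.53 alone. It was higher with PyMT-N cells (4.96 ± 0.32, edgeR adjusted p = 8.92e-09) and with PyMT-M cells (4.81 ± 0.32, adjusted p = 3.27e-08) than alone, and the co-cultures differed by 0.15 ± 0.19 (adjusted p = 0.573). Ripk3, the kinase between them, had 17.5, 15.7 and 19.6 with PyMT-N cells, 18.7, 11.5 and 20.5 with PyMT-M cells and 9.80, 15.7 and 0 alone. It passed in no comparison under TMM, and against alone under pan-leukocyte scaling (1.89 with PyMT-N cells, edgeR adjusted p = 0.00209, and 2.21 with PyMT-M cells, adjusted p = 0.000422) and, with PyMT-M cells, under library totals (1.24, adjusted p = 0.039). Casp8, the protease that restrains necroptosis, was higher with PyMT-N cells than alone (1.75 ± 0.34, adjusted p = 0.000478). It was also higher than with PyMT-M cells (1.17 ± 0.31, adjusted p = 0.00746), which did not pass under pan-leukocyte scaling (0.71, adjusted p = 0.108). Cflar, the caspase-8 partner cFLIP, had 339, 275 and 326.5 with PyMT-N cells, 103, 107 and 106 with PyMT-M cells and 154, 176 and 145 alone. It was higher with PyMT-N cells than alone (0.98 ± 0.17, adjusted p = 0.000221) and than with PyMT-M cells (1.58 ± 0.17, adjusted p = 4.44e-06). Its PyMT-M difference from alone, -0.60 ± 0.18 (adjusted p = 0.00933), did not pass without alone replicate 2 (-0.50, adjusted p = 0.0526) or under library totals (-0.09, adjusted p = 0.692) and turned to 0.90 under pan-leukocyte scaling (adjusted p = 0.00136). In all, 3 of 5 tested partners were higher with PyMT-N cells than alone, 1 was higher and 1 lower with PyMT-M cells than alone, and 2 were higher with PyMT-N than PyMT-M cells, with medians of 0.98, 0.58 and 0.87. Beside them, 29.4% of all tested genes were higher with PyMT-N cells than alone, 28.2% higher and 27.9% lower with PyMT-M cells than alone, and 19.1% higher with PyMT-N than PyMT-M cells, so the shares with PyMT-M cells against alone were below those of all genes. Pan-leukocyte scaling gave 5, 4 and 1 higher and 0 lower, where 57.1%, 63.3% and 12.2% of all tested genes were higher.

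**Figure D5:**
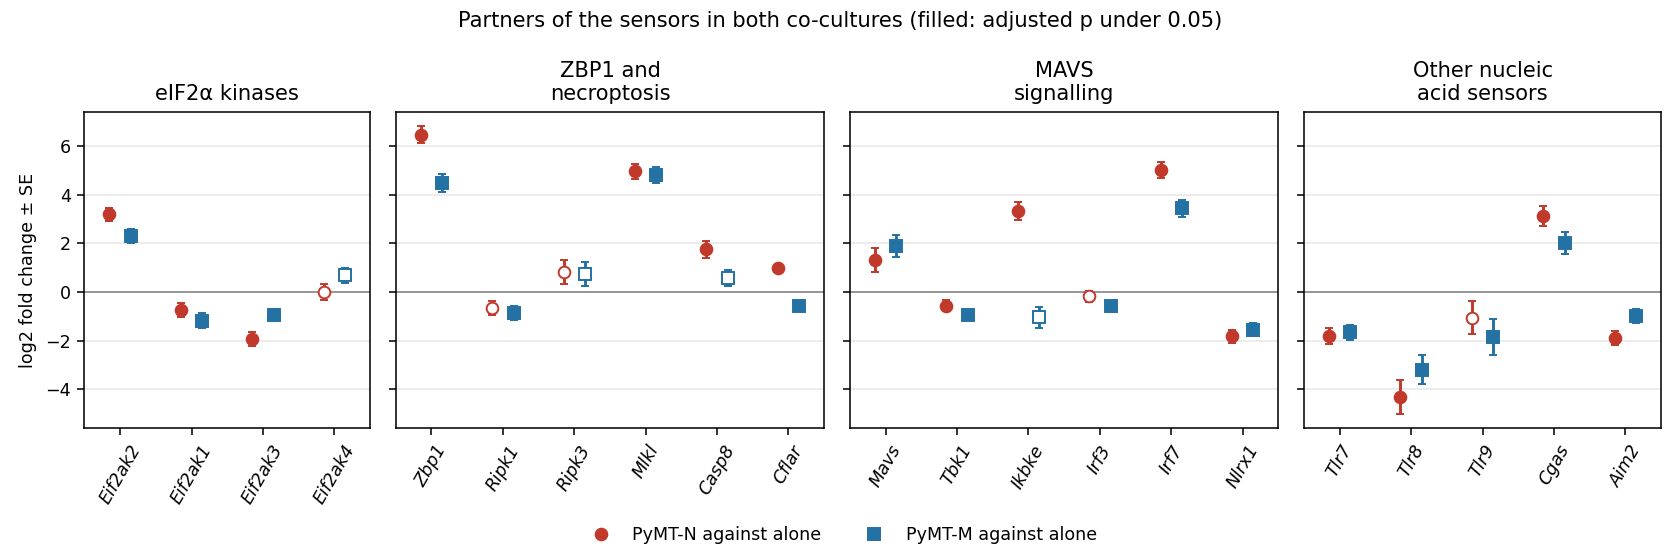
Log2 fold change with its SE of both co-cultures against neutrophils alone for sensor genes and their partners, filled at an adjusted p under 0.05. Eif2ak2 lies above 0, at 3.19 and 2.29, while Eif2ak3 lies below it under the TMM scaling plotted (its PyMT-M value turns to 0.51 under pan-leukocyte scaling), and Ikbke is at 3.33 with PyMT-N cells and at -1.04 with PyMT-M cells, where it did not pass and is 0.47 under pan-leukocyte scaling.

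Other relatives of ADAR were barely counted. Of 4 other family genes listed, 1 passed the filter, Adarb1, which encodes another active deaminase, with 67 counts with PyMT-N cells, 166 with PyMT-M cells and 2 alone. Its ratio to alone was 17.8 (exact 95% counting interval 4.74 to 150) with PyMT-N cells and 38.0 (10.4 to 316) with PyMT-M cells.

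A list of other nucleic acid sensors did not move as a block. It also held the adaptor Tmem173 and the enzymes Trex1, Samhd1, Rnaseh2a, Rnaseh2b and Rnaseh2c, which break down nucleic acids or nucleotides. The counts below cover this whole list, so they do not describe sensors alone. Of 11 tested, PyMT-N co-culture had 2 above and 4 below alone, PyMT-M co-culture had 3 above and 5 below, and 3 were higher and 2 lower with PyMT-N than with PyMT-M cells, with medians of 0.19, -0.26 and -0.15. Over all tested genes the shares higher and lower were 29.4% and 23.6%, 28.2% and 27.9%, and 19.1% and 15.5%, and the counts higher against alone were at or below them. Pan-leukocyte scaling gave 6 higher and 2 lower, 6 and 1, and 1 and 4, beside 57.1% and 7.37%, 63.3% and 2.41%, and 12.2% and 27.5% of all tested genes. The endosomal RNA receptors Tlr7 and Tlr8 were lower. Tlr7 had 10.6, 14.6 and 10.3 normalised CPM with PyMT-N cells, 16.1, 10.3 and 13.04 with PyMT-M cells and 41.9, 50.8 and 27.2 alone (-1.81 ± 0.32 and -1.65 ± 0.31 against alone, edgeR adjusted p = 0.000241 and 0.000386). Neither passed under pan-leukocyte scaling (-0.73, adjusted p = 0.0841, and -0.20, adjusted p = 0.645). Tlr8 averaged 1.10 ± 1.55 with PyMT-N cells, 2.41 ± 1.38 with PyMT-M cells and 22.9 ± 12.2 alone (SD, n = 3 each; -4.32 ± 0.69 and -3.19 ± 0.58). Tlr3, the endosomal receptor for double-stranded RNA, had 80 counts with PyMT-N cells, 11 with PyMT-M cells and 0 alone. With the alone group set at 3 counts, the PyMT-N level was 14.2-fold that of alone, leaving out counting error in the PyMT-N counts. Cgas, the cytosolic DNA sensor, had 31.3, 50.1 and 46.5 with PyMT-N cells, 20.9, 22.5 and 15.2 with PyMT-M cells and 4.01, 7.47 and 1.51 alone and no groups overlapped. It was higher in PyMT-N (3.12 ± 0.42, adjusted p = 1.93e-05) and PyMT-M co-culture (2.00 ± 0.45, adjusted p = 0.00169) than alone. Aim2, another DNA sensor, was lower with PyMT-N cells than alone (-1.90 ± 0.30, adjusted p = 7.81e-05), at 63.7 ± 27.5 normalised CPM with PyMT-N cells and 240 ± 43.6 alone (SD, n = 3 each).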

How the data were processed

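Bulk RNA of neutrophils was sequenced in 9 libraries, each built using the QIAseq FX Single Cell RNA kit, from 150 pg of input after RNeasy Micro extraction, per the labels' protocols. The authors deposited unnormalised whole-number counts by Ensembl identifier. STAR is named as aligner and GRCm38 (mm10) as build, per the submitters' processing notes. The sources used here do not say how aligned reads were counted, with which annotation or strand setting, so overlapping, antisense and near-identical genes cannot be separated with certainty. Totals ran from 1641049 to 4524563 counts, so a floor of 3 counts was 0.573 to 2.26 normalised CPM by library. Chi-square over degrees of freedom was 6.71 to 16.5 for replicate pairs without alone replicate 3. It was 33.0 and 37.8 for the pairs with that library. All these values lay above sampling noise, and no pair was treated as a duplicate.

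Symbols, exons and coordinates came from GENCODE M21 on GRCm38, with a symbol for 54409 of 54532 identifiers, and promoter windows came from RefSeq on GRCm38.p6. Low genes were removed by filterByExpr (edgeR 4.0.16) at a count minimum of 10 and a total minimum of 15. The 9 libraries were scaled by TMM and fitted together in R 4.3.3, with 1 coefficient per condition. Comparisons used edgeR's robust quasi-likelihood F test with Benjamini-Hochberg adjustment over all 12012 tested genes and a threshold of 0.05. Every adjusted p in the text comes from that test unless another tool is named, and SE is the log2 fold change over the root of F. The code was tested on simulated data. Alternatives were other size factors, scaling to a list of pan-leukocyte genes, other filters, DESeq2 1.42.0, limma-voom (limma 3.58.1), other fits and thresholds, the replicate number as a block, and each library left out in turn.

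The genes, the companion lists and the tests were chosen with earlier results of these data known. Named companions were up to 3 called genes of smallest p per list, direction and comparison, with Eif2ak1, Eif2ak3, Eif2ak4, Irf3, Irf7, Tbk1, Ripk3 and Mlkl always included, and some that met the rule are not printed. For each sensor gene the 3 most similar profiles were named among genes of mean log2 CPM of at least 4.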

Additional observations from a re-analysis of the deposited data

How the results depend on the processing

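For the 7 sensor genes, 375 of 399 recomputed fold changes kept their direction and side of the threshold, 14 lost the call, 10 gained it and 0 reversed. Calls were lost or gained for Mavs, Dhx58, Adar and Eif2ak2; values for single libraries and pan-leukocyte scaling stand in the report, and the stricter thresholds account for the changes with no value given. Beside those, Mavs against alone with PyMT-N cells lost its call with limma-voom (0.96, adjusted p = 0.0783) and in a fit of the compared groups only (1.29, adjusted p = 0.0617). Dhx58 gained a call with PyMT-M cells against alone under library totals (1.41, adjusted p = 0.0184), limma-voom (1.93, adjusted p = 2.5e-05) and no filter (0.97, adjusted p = 0.00402). Between PyMT-N and PyMT-M co-culture Dhx58 gained one with limma-voom (0.98, adjusted p = 8.42e-05), no filter (1.00, adjusted p = 0.000756) and the compared groups only (1.01, adjusted p = 4.67e-05), and Mavs was lower with limma-voom (-0.71, adjusted p = 0.0485), where 1 sensor gene was lower. The cause was not tested.

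Counts over all genes that moved by over 1.5 times were, under pan-leukocyte scaling, 6856 higher and 885 lower for PyMT-N against alone, 7599 and 290 for PyMT-M against alone, and 1462 and 3304 between PyMT-N and PyMT-M co-culture, where 3 sensor genes were higher and 1 lower. Library totals gave 1913 lower calls in PyMT-M co-culture against alone. Between the co-cultures a threshold of 0.01 gave 1092 lower calls, and a log2 minimum of 1 left 3 sensor genes higher. The cause was not tested, other than that the stricter thresholds admit fewer genes.

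With single libraries left out, calls ran from 3141 to 3907 higher and 2424 to 3275 lower for PyMT-N against alone, with 6 to 7 sensor genes higher. They ran from 2964 to 3648 and 2893 to 3857 in PyMT-M co-culture against alone, with 5 to 7 sensor genes higher, and from 1920 to 2044 and 1315 to 1530 between PyMT-N and PyMT-M co-culture, with 5 sensor genes higher each time and 0 lower in all 3 comparisons.

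Replicate numbers, and the numbers in the column names of the counts, are shared between groups, and the sources used here do not say what they mark. Libraries of the same number did not deviate together (correlations between -0.08 and 0.03). That does not decide whether they share a source. The main fit treats them as unpaired, and a fit with the replicate number as a block stands beside it. With the replicate block, higher and lower calls were 3411 and 2692 in PyMT-N co-culture against alone, 3274 and 3243 in PyMT-M co-culture against alone and 2228 and 1739 between the co-cultures. The same number of sensor genes was called as without it, 7, 6 and 5 higher and 0 lower.

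Of 1719 recomputed values for 43 companion genes, 1557 kept direction and call, 115 lost the call, 15 gained one and 32 reversed, 18 of these under pan-leukocyte scaling. That scaling reversed, in PyMT-N co-culture against alone, Ddx3x (0.49), Eif2ak1 (0.35), Eif2ak4 (1.06), Irf3 (0.91), Pcbp2 (0.35) and Tbk1 (0.52). In PyMT-M co-culture against alone it reversed Cflar (0.90), Cyld (0.65), Ddit3 (0.23), Ddx3x (0.68), Eif2ak1 (0.29), Eif2ak3 (0.51), Irf3 (0.89), Samhd1 (0.90) and Tbk1 (0.56), and between the co-cultures Mlkl (-0.26), Ripk3 (-0.31) and Tbk1 (-0.047). The other reversals were of differences that had not passed. For Eif2ak4 in PyMT-N co-culture against alone the values were 0.032 with relative log expression, 0.27 with library totals, 0.055 with no filter and 0.042 with DESeq2, and they ran from -0.13 to 0.11 with single libraries left out, above 0 without PyMT-N replicate 1 (0.020), PyMT-N replicate 3 (0.11) or alone replicate 2 (0.091). Irf3 there was 0.12 with library totals. Between the co-cultures Mlkl was -0.064 with library totals, and Ripk3 was -0.011 with upper quartile factors, -0.12 with library totals, -0.00055 with DESeq2, -0.0031 without PyMT-N replicate 3 and -0.15 without PyMT-M replicate 2. The cause was not tested.

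Of 21 group means of the sensor genes, 8 moved by more than the SD under library totals and 13 under pan-leukocyte scaling. With 1 to 3 bases between the GAAA cores in place of 2, a promoter match was found for 4 of 5 genes rather than 3, with Adar, which has 3 windows, added, against 9.91% of all genes with a window. Depth limits Mavs and Zbp1 in neutrophils alone, with 31 and 33 counts in all, and every interferon gene.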
